A study of Mus musculus with 6 samples.

Results

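The Serpina1 and Serpina3 protease inhibitors of the mouse liver are described here through 9 genes out of 54115 genes counted: the 5 *Serpina1* copies (*Serpina1a* to *Serpina1e*), *Serpina3k*, *Serpina3m*, *Serpina3n* and *Serpina6*. The genes were chosen by name, and the reads of all annotated transcripts of a gene were added together, scaled to library size and compared between genotypes. RNA-seq was performed on whole liver from 3 WT mice and 3 *Sirt7* KO mice, all of them male, 24 months old and sampled after a fast of 16 h. The *Sirt7* KO line carries a germline knockout of *Sirt7*, which encodes a nuclear deacylase, and it was moved from a mixed background onto C57BL/6J by repeated backcrossing. WT and *Sirt7* KO mice came as littermates from heterozygous parents, and no other allele or agent was named for either genotype. The comparison asks which liver transcripts differ when SIRT7 is absent in old, fasted males.

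Serpins are single-use inhibitors. A protease attacks an exposed loop of the serpin, the reactive centre loop, and the cut loop then swings into the body of the molecule and traps the protease. The bond that is attacked follows a residue called P1, and P1 largely decides which proteases are caught. Hepatocytes secrete large amounts of these proteins into blood. The *Serpina1* genes encode α1-antitrypsin, the main plasma inhibitor of neutrophil elastase, which humans make from a single gene and mice from a row of duplicated genes whose number differs between inbred strains. The *Serpina3* genes are a duplicated mouse counterpart of human α1-antichymotrypsin. *Serpina3k* encodes a kallikrein-binding inhibitor, and *Serpina3n* encodes an inhibitor of granzyme B that is induced by inflammation and glucocorticoids. *Serpina6* encodes corticosteroid-binding globulin, which kept the serpin fold but carries glucocorticoids in plasma rather than inhibiting proteases.

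All 9 genes lie in 1 cluster on chromosome 12 of GRCm38, within 767.7 kb between *Serpina6* at its first base 103646630 and *Serpina3n* at its last base 104414329. The *Serpina1* copies occupy neighbouring positions on the minus strand, in the order *Serpina1b*, *Serpina1d*, *Serpina1a*, *Serpina1c* and *Serpina1e*, and the *Serpina3* members lie on the plus strand at the far end. In the most abundant transcript of each *Serpina1* copy the coding sequence is 1239 bases long, and any pair of copies is identical at 96.3% to 98.5% of coding positions. The copies are therefore told apart by few bases, which are denser in the loop. Of the 63 loop positions, 14 (22.2%) differ among the 5 copies, against 72 of the 1176 coding positions outside it (6.12%).

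The loops are printed because the *Serpina1* copies differ there at a larger share of positions than elsewhere, in the part that meets the protease. Each stretch is the 63 coding bases, read 5′ to 3′, that begin at the conserved hinge (found by a motif of its first codons, in frame), taken from the GENCODE M21 transcripts. The codon in capitals is the 15th of the 21 loop codons, the place of P1 when residues are counted from the hinge. In every gene shown the loop lies within the last of 5 exons.
Serpina1a: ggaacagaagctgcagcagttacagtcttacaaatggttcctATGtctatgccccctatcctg
Serpina1b: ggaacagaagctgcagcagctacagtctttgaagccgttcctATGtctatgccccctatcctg
Serpina1c: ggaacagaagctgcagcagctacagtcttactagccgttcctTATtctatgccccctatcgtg
Serpina1d: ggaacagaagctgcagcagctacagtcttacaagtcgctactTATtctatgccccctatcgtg
Serpina1e: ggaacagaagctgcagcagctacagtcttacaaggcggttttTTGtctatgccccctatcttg
Serpina3k: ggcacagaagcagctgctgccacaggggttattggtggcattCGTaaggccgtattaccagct
Serpina3m: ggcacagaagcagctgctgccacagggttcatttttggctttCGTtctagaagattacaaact
Serpina3n: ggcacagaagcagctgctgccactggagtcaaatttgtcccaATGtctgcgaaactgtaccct
The *Serpina1e* loop lies at chr12:103947111-103947173 on the minus strand, and the *Serpina3k* loop at chr12:104345269-104345331 on the plus strand. At the capitals *Serpina1a* and *Serpina1b* share the codon ATG, *Serpina1c* and *Serpina1d* share TAT, and *Serpina1e* alone has TTG. *Serpina3k* and *Serpina3m* share CGT, whereas *Serpina3n* has ATG. No stretch of the *Serpina6* coding sequence matched the hinge motif.

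This likeness limits how well reads can be assigned. Of all 75-base windows of its main transcript, *Serpina1a* shared all but 30.4% with another gene and *Serpina1c* all but 33.9%, and each shared about the same part with the other (62.8% of *Serpina1a* windows, 62.9% of *Serpina1c* windows). The split of reads between *Serpina1a* and *Serpina1c* is therefore uncertain. Windows shared only with other *Serpina1* copies made up 41.3% for *Serpina1a* and 43.1% for *Serpina1c*. The remaining shared windows, present in each of the 5 copies, also occurred in a gene outside the copies. *Serpina1d* had 62.9% of windows to itself, *Serpina1b* 67.1% and *Serpina1e* 75.8%. Outside the *Serpina1* copies the members were well separated, with 90.3% of windows not shared for *Serpina3m*, 92.6% for *Serpina3k*, 98.5% for *Serpina3n* and no shared window at all for *Serpina6*. *Serpina1c* also overlaps an antisense gene, and the library kit does not mark strand. Windows were compared on the sense strand only, so that overlap is not part of the window shares.

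The libraries held 9994860 to 13424776 estimated reads. *Sirt7* itself had 55.2, 45.5 and 47.3 CPM (the counts-per-million scale, after TMM normalization) in WT mice against 28.6, 41.7 and 40.8 CPM in *Sirt7* KO mice, lower in every *Sirt7* KO mouse but short of the threshold (log2 fold change −0.41, SE 0.18, edgeR adjusted p = 0.423). With the average transcript length of each mouse as an offset the *Sirt7* difference changed sign, to 0.80 in edgeR and 0.81 in DESeq2. Its main transcript (ENSMUST00000080202.11) had 381 to 429 reads in WT mice against 77.5 to 135 reads in *Sirt7* KO mice, so the labels matched that transcript. Over all genes the median log2 fold change was −0.01, and it was −0.11 when libraries were scaled to total counts instead. The tissue was liver by its markers, since all 8 hepatocyte markers were detected, with a sum of 46238 to 55121 CPM in WT mice against 49142 to 54972 CPM in *Sirt7* KO mice. WT mouse 1 stood apart from the other WT mice in several genes of the clade, being the lowest for *Serpina1e* and the highest for *Serpina3m*, *Serpina3n* and *Serpina7*. For the members whose difference it moves most, values without it are given beside the result.

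Levels between genes were compared per length, in TPM (the transcripts-per-million scale of the authors). In WT mice *Serpina1d* (5159 ± 269, SD, n = 3) and *Serpina1c* (4948 ± 794) came first and overlapped each other. *Serpina1b* followed at 3711 ± 32.8 TPM, below both and above the rest. *Serpina3k* (3224 ± 469) and *Serpina1a* (3071 ± 129) overlapped as the next pair. *Serpina1e* stood at 1041 ± 800 TPM, with an SD close to its mean, and its lowest WT mouse was below the highest value of *Serpina3m* (287 ± 94.6). *Serpina3n* (142 ± 79.4) and *Serpina6* (121 ± 14.02) closed the list and overlapped. The order differed in *Sirt7* KO mice. *Serpina1c* led at 6319 ± 1282 TPM, *Serpina3k* moved to second at 5896 ± 1112 TPM, and *Serpina1d* (5560 ± 1175), *Serpina1e* (4256 ± 668), *Serpina1b* (3919 ± 364) and *Serpina1a* (3514 ± 480) followed, each overlapping its neighbour. *Serpina3m* (291 ± 33.7), *Serpina3n* (139 ± 7.44) and *Serpina6* (84.2 ± 36.3) lay well below and did not overlap each other. For scale, albumin (*Alb*) measured 11495 to 12012 TPM in WT mice against 9507 to 12819 TPM in *Sirt7* KO mice.

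**Figure D1:**
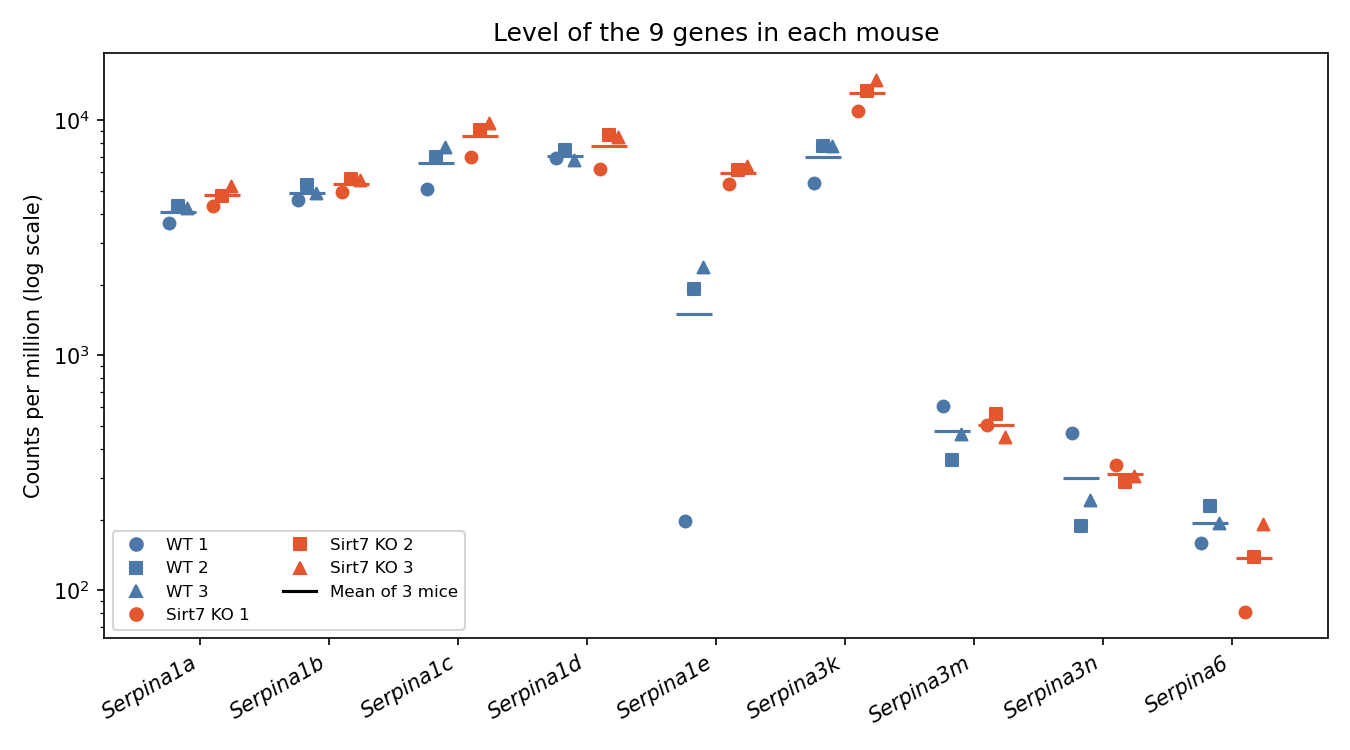
Level in CPM (vertical axis, log scale) of the 9 genes in each of 3 WT mice (blue) and 3 *Sirt7* KO mice (orange); marker shapes are mouse numbers and horizontal lines are means of 3 mice. *Serpina3k* and *Serpina1e* show the widest gaps between genotypes, and WT mouse 1 lies far below the other mice for *Serpina1e*.

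Together the 9 genes took a larger part of the library in *Sirt7* KO mice. They held 3.03%, 3.39% and 3.50% of gene reads in the WT mice against 3.91%, 4.62% and 4.87% in the *Sirt7* KO mice. The genotypes did not overlap, and the exact permutation test (two-sided) gave p = 0.1, the smallest value that 3 mice against 3 allow. In whole-liver RNA fewer cells of a type and less RNA per cell cannot be told apart, and this holds for every level given here. The members' log2 fold changes (*Sirt7* KO over WT) had a median of 0.15, against −0.01 over all genes tested, with 8 of 9 above 0. By edgeR 0 of 9 members reached an adjusted p under 0.05 with a fold change over 1.5, where the background over all 12524 genes tested was 0.00798% (1 gene). At an unadjusted p under 0.05 there were 2 members, *Serpina1e* and *Serpina3k*, both higher, against a background of 11.3%. DESeq2 called 1 member, *Serpina3k*, against a background of 2.16% (1.57% higher in *Sirt7* KO mice), and the same gene with transcript length offsets, where 1.33% of genes were called higher. The genotypes did not overlap for 3 members, all higher in *Sirt7* KO mice (*Serpina1a*, *Serpina1e* and *Serpina3k*), against a background of 8.74% of genes higher and 8.09% lower.

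The sum of the *Serpina1* copies avoids the split of reads among them, but not the split with a gene outside them. As 1 unit the *Serpina1* copies had higher summed CPM in every *Sirt7* KO liver, but the difference did not pass the test. Their summed level was 20421, 25967 and 25971 CPM in the WT mice against 27819, 34345 and 35409 CPM in the *Sirt7* KO mice. The genotypes did not overlap, although the highest WT mouse and the lowest *Sirt7* KO mouse were only 1.07-fold apart. The log2 fold change of the sum was 0.43 (SE 0.22, 95% interval −0.06 to 0.92), and neither p was under 0.05 (edgeR unadjusted p = 0.0766, adjusted p = 0.499). Without WT mouse 1 it was 0.32 (adjusted p = 0.713). Per length, as a share of TPM, the *Serpina1* copies held 1.64%, 1.84% and 1.916% in WT mice against 1.911%, 2.53% and 2.64% in *Sirt7* KO mice, and on this scale the genotypes overlapped (exact permutation test, p = 0.2).

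*Serpina1e* carried much of this difference. It measured 197, 1908 and 2379 CPM in the WT mice against 5357, 6140 and 6363 CPM in the *Sirt7* KO mice. The *Sirt7* KO mice were close to each other (highest over lowest 1.19) while the WT mice spread 12.1-fold, mouse 1 being the lowest, and the lowest *Sirt7* KO mouse was still 2.25-fold above the highest WT mouse. The mean was 1494 ± 1148 CPM in WT mice against 5953 ± 528 CPM in *Sirt7* KO mice (SD, n = 3), with a log2 fold change of 1.99 (SE 0.68, 95% interval 0.45 to 3.54), the largest of the 9 members. It did not pass the test over all genes (edgeR unadjusted p = 0.0171, adjusted p = 0.323). Without WT mouse 1 the difference was smaller and far more even between mice (log2 fold change 1.47, SE 0.19, unadjusted p = 6.04e-05), and the adjusted p was 0.103. The difference between the *Serpina1e* means made up 53.1% of the difference between the means of the *Serpina1* sum.

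The other copies, which include the pair that share most reads, had smaller differences than *Serpina1e*, and none reached an unadjusted p under 0.05 by edgeR. *Serpina1a* measured 3641, 4312 and 4254 CPM in WT mice against 4338, 4780 and 5246 CPM in *Sirt7* KO mice. The genotypes did not overlap, but the lowest *Sirt7* KO mouse was only 1.01-fold above the highest WT mouse (log2 fold change 0.23, SE 0.17, edgeR adjusted p = 0.667). *Serpina1c* measured 5111, 6971 and 7693 CPM in WT mice against 6988, 9090 and 9740 CPM in *Sirt7* KO mice, so the lowest *Sirt7* KO mouse fell among the WT mice (log2 fold change 0.38, SE 0.22, adjusted p = 0.572). Without WT mouse 1 the *Serpina1c* value was 0.23 (adjusted p = 0.828). *Serpina1b* ranged from 4594 to 5294 CPM in WT mice and from 4933 to 5641 CPM in *Sirt7* KO mice, and *Serpina1d* from 6748 to 7480 CPM and from 6206 to 8696 CPM. Both overlapped between genotypes, with log2 fold changes of 0.13 (SE 0.17) and 0.15 (SE 0.20). Added together, the 4 copies other than *Serpina1e* had 20228, 24057 and 23589 CPM in WT mice against 22464, 28207 and 29041 CPM in *Sirt7* KO mice. These sums overlapped (exact permutation test, p = 0.3), and the choice to leave *Serpina1e* out was made after its values were seen.

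The make-up of the α1-antitrypsin transcripts was followed through the share of each copy. *Serpina1e* made up 0.963%, 7.35% and 9.16% of the reads on *Serpina1* copies in the WT mice against 19.3%, 17.9% and 18.0% in the *Sirt7* KO mice. Its share was 5.82 ± 4.31% in WT mice against 18.4 ± 0.770% in *Sirt7* KO mice, with no overlap and a difference of 12.5 percentage points (10.1 without WT mouse 1). The shares of 3 copies were lower in every *Sirt7* KO mouse than in any WT mouse: *Serpina1a* went from 16.9 ± 0.778% to 14.8 ± 0.838%, *Serpina1b* from 20.6 ± 1.83% to 16.6 ± 1.02%, and *Serpina1d* from 29.5 ± 3.90% to 23.9 ± 1.51%. The *Serpina1c* share overlapped, at 27.2 ± 2.32% and 26.4 ± 1.201%. For each of the 4 copies whose shares did not overlap the exact permutation p was 0.1 (0.125 after adjustment over the 5 copies), the smallest this design allows. Shares add up to a whole, so a larger share of 1 copy goes with smaller shares of the others. Per length, in TPM, the *Serpina1e* share was 5.58 ± 4.16% in WT mice against 18.1 ± 0.228% in *Sirt7* KO mice.

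**Figure D2:**
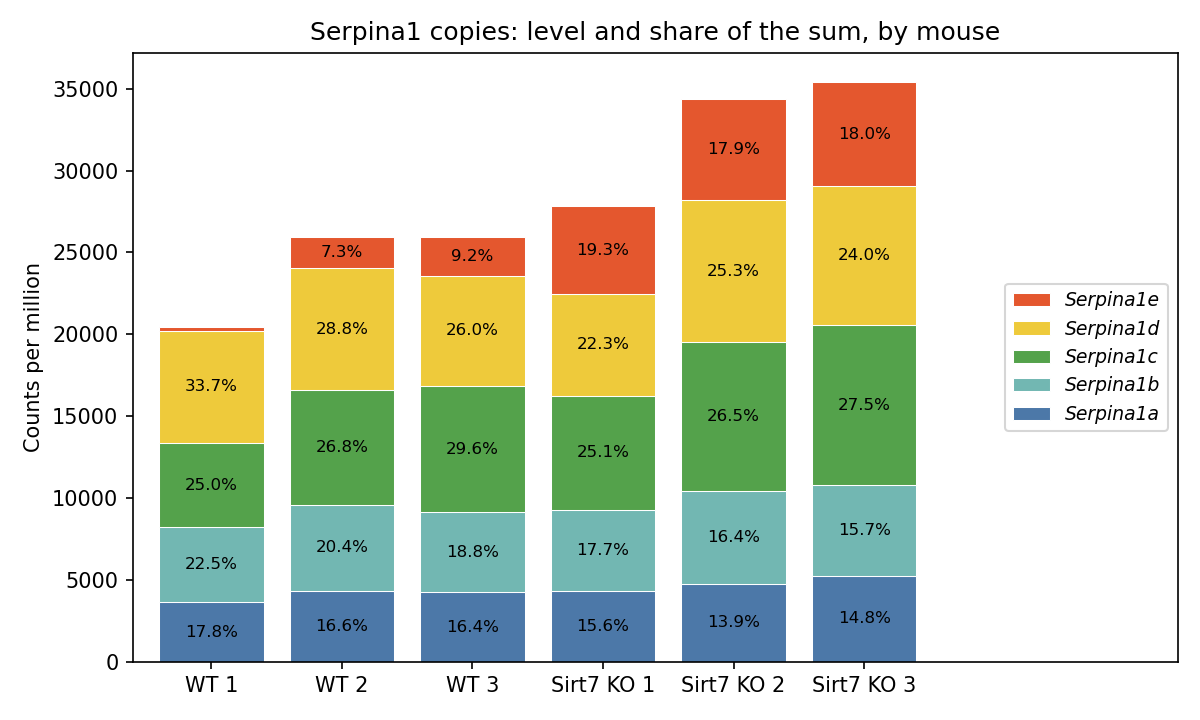
Summed level of the 5 *Serpina1* copies in each mouse in CPM (bar height), divided by copy (colors), with the share of each copy printed as percent of the sum. *Serpina1e* takes 17.9% to 19.3% of the sum in the *Sirt7* KO mice and 0.963% to 9.16% in the WT mice, the smallest share (unlabeled) being that of WT mouse 1.

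*Serpina1e* has a pair of annotated transcripts with different first exons. ENSMUST00000085054.4 is 1295 bases long and starts at position 103956898 of chromosome 12, and ENSMUST00000122229.7 is 1575 bases long and starts further upstream, at 103958975. The shorter one held 475, 11343 and 15202 estimated reads in WT mice against 25370, 38854 and 45646 in *Sirt7* KO mice. The longer one held 1850, 9684 and 16958 reads in WT mice against 33132, 19094 and 20403 in *Sirt7* KO mice. In every *Sirt7* KO mouse both transcripts had more reads than in any WT mouse, and WT mouse 1 had the fewest of each. The shorter transcript made up 20.4%, 53.9% and 47.3% of *Serpina1e* reads in WT mice against 43.4%, 67.1% and 69.1% in *Sirt7* KO mice, and the genotypes overlapped (exact permutation test, p = 0.3). *Serpina1b* was read almost entirely from 1 transcript, with 98.2% to 99.0% of its reads on ENSMUST00000095450.10. *Serpina1a* was read mostly from 1, with 83.7% to 98.1% of its reads on ENSMUST00000085056.7 and 1.60% to 15.5% on ENSMUST00000072876.11.

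**Figure D3:**
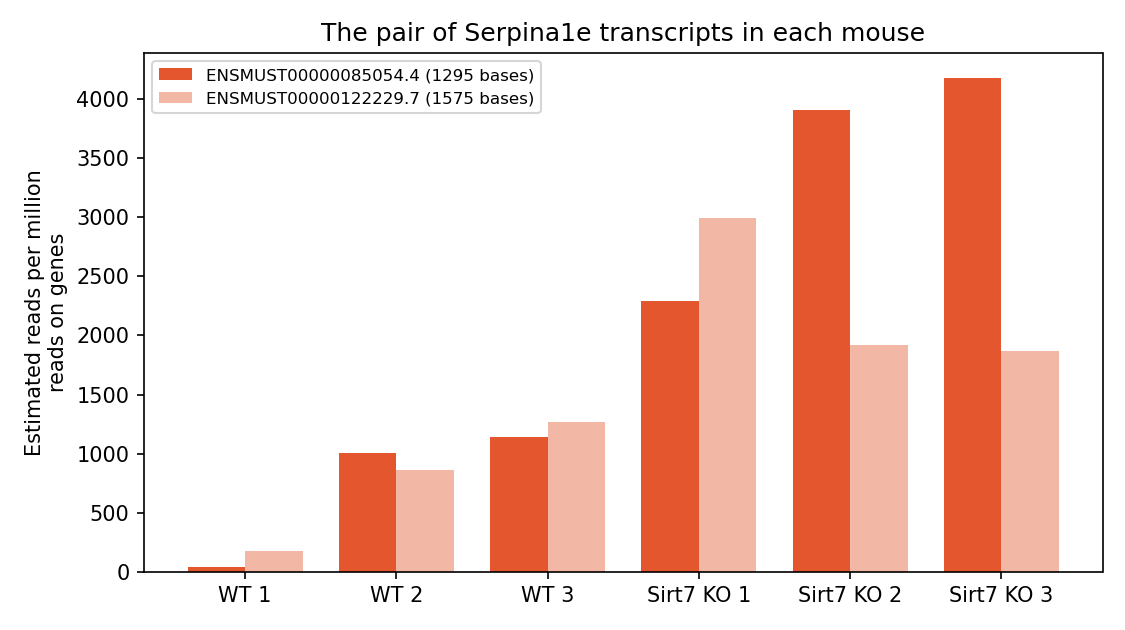
Estimated reads of the pair of *Serpina1e* transcripts, scaled to the reads on genes of each library (vertical axis, the scale of CPM without further normalization), by mouse. Each transcript has its lowest bar in WT mouse 1; the shorter transcript (dark) makes up 20.4% to 53.9% of *Serpina1e* reads in WT mice against 43.4% to 69.1% in *Sirt7* KO mice.

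*Serpina3k*, the most abundant *Serpina3* gene and the 9th of all genes by mean CPM, showed the clearest difference of the 9 members. It measured 5405, 7781 and 7786 CPM in the WT mice against 10943, 13361 and 14896 CPM in the *Sirt7* KO mice. The lowest *Sirt7* KO mouse was 1.41-fold above the highest WT mouse. The log2 fold change was 0.90 (SE 0.22, 95% interval 0.40 to 1.41), or 1.87-fold. By edgeR it did not pass (unadjusted p = 0.00301, adjusted p = 0.189, 199th of 12524 genes by p), whereas DESeq2 called it (adjusted p = 0.000843, and 0.00605 with transcript length offsets). Without WT mouse 1 the log2 fold change was 0.74 (edgeR adjusted p = 0.288). Leaving out *Sirt7* KO mouse 1, the lowest of its genotype, gave 1.02 with an edgeR adjusted p of 0.0492, so the edgeR call turned on that mouse. This was not particular to *Serpina3k*: over all genes edgeR called 252 without that mouse, against 1 with all mice. *Serpina3k* alone made up 0.605% to 0.787% of gene reads in WT mice against 1.08% to 1.42% in *Sirt7* KO mice.

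The neighbouring *Serpina3m*, 91.1% identical to *Serpina3k* in coding sequence, did not follow it. It measured 610, 358 and 462 CPM in the WT mice against 504, 563 and 451 CPM in the *Sirt7* KO mice, with full overlap (log2 fold change 0.08, SE 0.21, edgeR adjusted p = 0.921), and without WT mouse 1 the log2 fold change was 0.30 (adjusted p = 0.716). Its annotation includes a transcript, ENSMUST00000101078.11, that starts at the first base of *Serpina3k*. This transcript had 466 and 373 reads in *Sirt7* KO mice 2 and 3 and 0 in the other mice, which left 91.2% or more of *Serpina3m* reads on the transcript that starts within the gene. *Serpina3n* measured 468, 188 and 243 CPM in the WT mice against 341, 288 and 306 CPM in the *Sirt7* KO mice. The WT mice enclosed the *Sirt7* KO mice, and the log2 fold change was 0.05 (SE 0.30, adjusted p = 0.965). WT mouse 1 was 2.49-fold above WT mouse 2, and without it the log2 fold change of *Serpina3n* was 0.52 (SE 0.18, unadjusted p = 0.0194, adjusted p = 0.414). Neither *Serpina3m* nor *Serpina3n* had a settled direction. Without WT mouse 2 their log2 fold changes were −0.082 and −0.19, and with total counts, a scaling that lowers the median of all genes as well, they were −0.042 and −0.086.

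Summed over all annotated *Serpina3* genes, the level was 6491, 8337 and 8499 CPM in WT mice against 11800, 14221 and 15668 CPM in *Sirt7* KO mice, most of it *Serpina3k*. The sum had no overlap between genotypes and a log2 fold change of 0.84 (SE 0.21, 95% interval 0.37 to 1.31, edgeR adjusted p = 0.187). DESeq2 gave an adjusted p of 0.000704 for it. Without WT mouse 1 the log2 fold change was 0.72, and without *Sirt7* KO mouse 1 it was 0.94 with an edgeR adjusted p of 0.0440.

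*Serpina6*, the glucocorticoid carrier, was the 1 member with a negative log2 fold change. It measured 160, 228 and 193 CPM in the WT mice against 81.2, 138 and 192 CPM in the *Sirt7* KO mice. *Sirt7* KO mouse 3 was level with WT mouse 3, and the other *Sirt7* KO mice were below all WT mice. The log2 fold change was −0.50 (SE 0.28, 95% interval −1.14 to 0.15, edgeR adjusted p = 0.566), and the interval includes 0. It was −0.23 without *Sirt7* KO mouse 1, the lowest, and −0.82 without *Sirt7* KO mouse 3, the highest of its genotype. *Serpina6* had the widest spread of the members among *Sirt7* KO mice (highest over lowest 2.36).

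**Figure D4:**
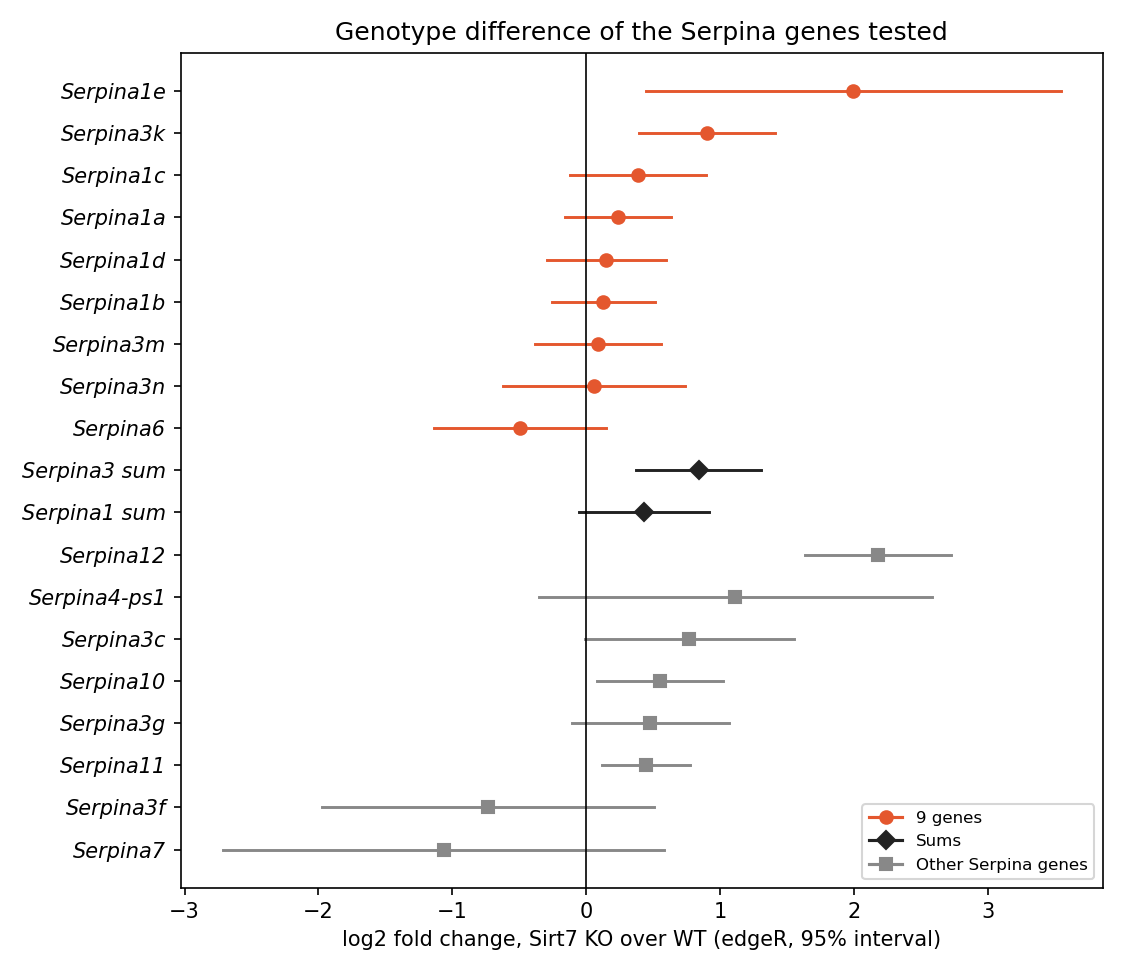
log2 fold change (*Sirt7* KO over WT, horizontal axis) with its 95% interval from edgeR for the 9 members (orange circles), both sums (black diamonds) and the 8 other *Serpina* genes tested (gray squares). The intervals of *Serpina1e*, *Serpina3k* and the *Serpina3* sum lie above 0, as do those of *Serpina12*, *Serpina10* and *Serpina11*; all adjusted p-values shown are above 0.05.

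Of the 29 annotated *Serpina* genes 17 had enough reads to be tested, the 9 members and 8 others, and none of the 12 not tested exceeded 8 reads in a mouse. The lowest adjusted p among all of them belonged to *Serpina12*, which encodes vaspin and lies between the *Serpina1* and *Serpina3* groups. It measured 10.7, 17.8 and 21.3 CPM in the WT mice against 69.0, 83.3 and 73.3 CPM in the *Sirt7* KO mice. The *Sirt7* KO mice were well above the WT mice (log2 fold change 2.18, SE 0.24, edgeR adjusted p = 0.0538). *Serpina10*, which encodes the protein Z-dependent inhibitor of factor Xa, and *Serpina11* were also higher without overlap, with log2 fold changes of 0.55 (SE 0.21) and 0.44 (SE 0.15). Among minor genes the log2 fold change was 0.77 for *Serpina3c*, 0.48 for *Serpina3g*, 1.11 for the pseudogene *Serpina4-ps1* and −0.73 for *Serpina3f*, each with under 10 CPM. *Serpina7*, which encodes thyroxine-binding globulin and lies on chromosome X, measured 235, 20.2 and 43.0 CPM in WT mice against 60.1, 44.1 and 38.3 CPM in *Sirt7* KO mice, with a log2 fold change of −1.07, and WT mouse 1 was well above all other mice, which overlapped. None of these 8 genes passed the edgeR test. Differences therefore did not run evenly along the cluster. The 4 *Serpina1* copies from *Serpina1b* to *Serpina1c* had log2 fold changes of 0.13 to 0.38, *Serpina1e* next to them 1.99, *Serpina11* 0.44 and *Serpina12* 2.18, and *Serpina3m* beside *Serpina3k* 0.08.

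**Figure D5:**
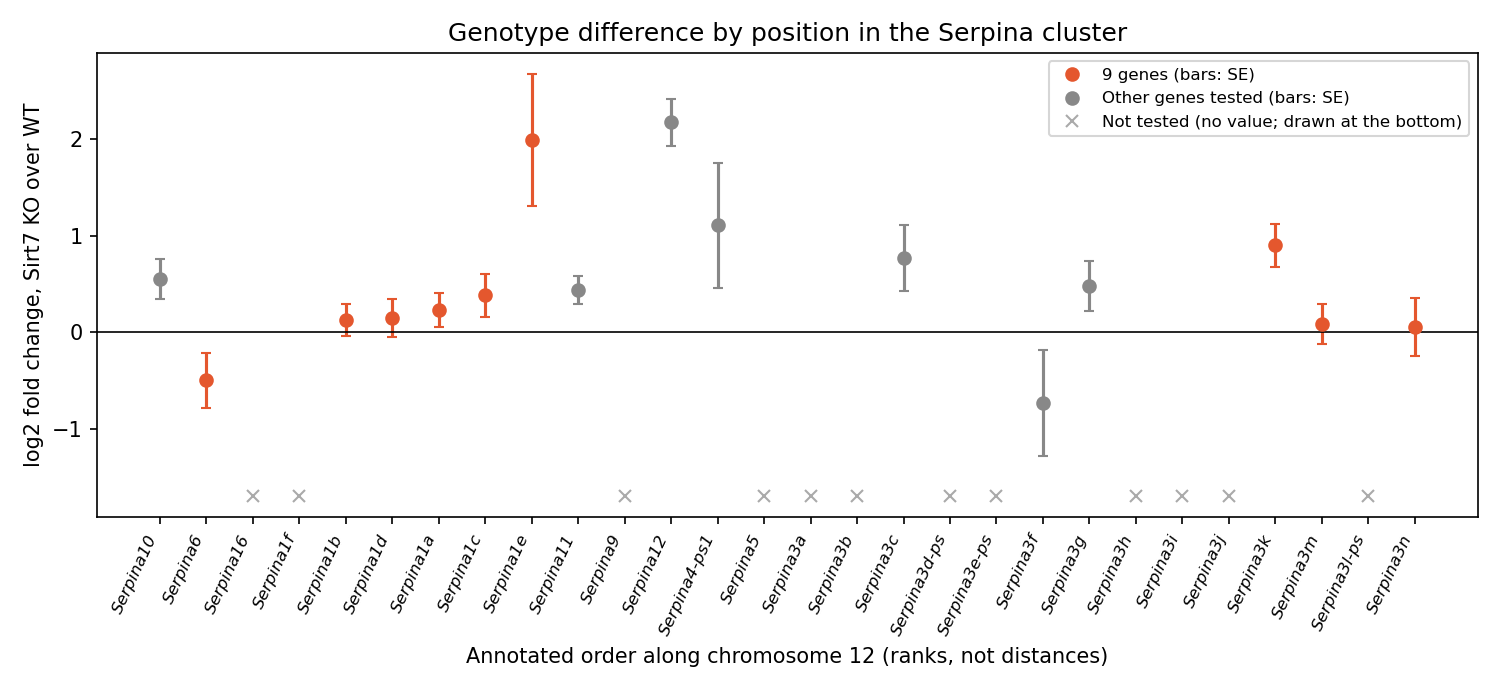
log2 fold change (*Sirt7* KO over WT, vertical axis) of the *Serpina* genes of chromosome 12 in their annotated order (horizontal axis, ranks rather than distances), with SE bars; orange marks the 9 members, gray the other genes tested, and crosses at the bottom the genes not tested. *Serpina1e* (1.99) and *Serpina12* (2.18) stand above their neighbours, and *Serpina6* (−0.50) and *Serpina3f* (−0.73) lie below 0.

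The promoter of *Serpina1e* was compared with those of the other copies because its level differed from theirs. RefSeq promoter windows (GRCm38.p6, 250 bases before to 50 after the start) were found for 6 of the 9 members. The windows of *Serpina1e* and *Serpina1b*, the closest pair, were identical at 244 of 250 overlapping bases (97.6%), and *Serpina1e* was 95.2% to 95.9% identical to the other copies. They lie on the minus strand at chr12:103738140-103738439 for *Serpina1b* and chr12:103956848-103957147 for *Serpina1e*. Capitals mark matches, on either strand, to the letters GTTAAT of an HNF1 site and TTGCNNAA of a C/EBP core, sites of factors known for liver transcription.
Serpina1b: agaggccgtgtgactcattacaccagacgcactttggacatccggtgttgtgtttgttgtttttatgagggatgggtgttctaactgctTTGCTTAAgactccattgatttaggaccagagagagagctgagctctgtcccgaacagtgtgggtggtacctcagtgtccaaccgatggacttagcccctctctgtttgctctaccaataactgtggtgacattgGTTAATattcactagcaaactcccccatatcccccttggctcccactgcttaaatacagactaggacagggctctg
Serpina1e: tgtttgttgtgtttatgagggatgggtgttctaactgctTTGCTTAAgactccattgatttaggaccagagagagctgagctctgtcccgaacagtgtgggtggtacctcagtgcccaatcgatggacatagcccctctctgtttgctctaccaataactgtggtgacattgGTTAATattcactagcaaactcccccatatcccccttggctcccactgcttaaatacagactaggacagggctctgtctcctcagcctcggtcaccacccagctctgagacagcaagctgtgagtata
All 5 *Serpina1* windows held GTTAAT once, against 7.10% of 32851 promoter windows, and *Serpina3n* did not. TTGCNNAA was found in the windows of *Serpina1a*, *Serpina1b*, *Serpina1d* and *Serpina1e* (10.8% of all windows) and not in that of *Serpina1c*. The match was the same upstream place in *Serpina1b*, *Serpina1d* and *Serpina1e*. *Serpina1a* had no match there, and its match lay near the downstream end of its window. Neither TTCNNNGAA, the letters of a STAT site, nor TATAAA, those of a TATA box, occurred in any of the 6 windows, against 8.30% and 13.6% of all windows. The letters searched did not set *Serpina1e* apart from *Serpina1b* or *Serpina1d*. These windows concern the shorter *Serpina1e* transcript, and the start of the longer one lies outside them.

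The surroundings of the 9 genes were described through lists, given by their counts and medians. Over all genes tested the median log2 fold change was −0.01, and the genotypes did not overlap for 8.74% of genes higher and 8.09% lower. At an unadjusted p under 0.05 the background was 6.54% of genes higher and 4.78% lower. Among 6 other plasma serpins tested 2 were higher and 0 lower at that level. They were *Serpinf2*, which encodes α2-antiplasmin (693 ± 99.1 CPM in WT, 1201 ± 129 CPM in *Sirt7* KO, log2 fold change 0.79, edgeR adjusted p = 0.160), and *Serpine2*, which encodes a thrombin inhibitor (log2 fold change 0.68, adjusted p = 0.185). The most abundant, antithrombin (*Serpinc1*), was nearly level at 3279 ± 207 and 3374 ± 515 CPM, and the C1 inhibitor *Serping1* had a log2 fold change of 0.32. The list median was 0.33.

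Serpins meet neutrophil proteases and the proteases of coagulation and fibrinolysis. Of the list of proteases and clearance genes 7 of 10 were tested, with a median of 0.33, and 2 were higher at an unadjusted p under 0.05, *F11* (coagulation factor XI, log2 fold change 1.39, adjusted p = 0.185) and *Prtn3*. *Prtn3*, a neutrophil protease, was near the detection limit with 0 to 0.593 CPM in WT mice against 0.963 to 6.04 CPM in *Sirt7* KO mice. Plasminogen (*Plg*) had 2034 ± 180 and 2589 ± 342 CPM, and protein C (*Proc*) 844 ± 24.1 and 841 ± 125 CPM. *Elane* and *Gzmb*, which encode neutrophil elastase and granzyme B, were too low to be tested and *Ctsg* had no read.

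Secreted serpins fold in the endoplasmic reticulum, and a list of 20 genes that fold, degrade or export such glycoproteins was followed. Of 19 tested 9 were higher and 0 lower at an unadjusted p under 0.05. The genotypes did not overlap for 11, all higher, against a background of 8.74% of genes higher. The median log2 fold change was 0.33, against −0.01 over all genes. None passed the edgeR test with adjustment over all genes. *Hspa5*, which encodes the chaperone BiP, had 490, 426 and 350 CPM in WT mice against 895, 632 and 636 CPM in *Sirt7* KO mice (log2 fold change 0.77, adjusted p = 0.202). *Calr*, which encodes calreticulin, had 176, 134 and 129 CPM in WT mice against 285, 246 and 281 CPM in *Sirt7* KO mice (0.88, adjusted p = 0.123). *Uggt1*, the folding sensor of the calnexin cycle, had a log2 fold change of 0.60 and the cargo receptor *Surf4* one of 0.20.

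The acute-phase proteins are plasma proteins that hepatocytes raise in inflammation, as they do *Serpina3n*. All 18 were tested, all had log2 fold changes above 0 (also with total counts), the median was 0.53, and 6 were higher at an unadjusted p under 0.05 with 0 lower. *Orm1* and *Orm2*, which encode α1-acid glycoproteins, had log2 fold changes of 0.84 (adjusted p = 0.152) and 1.70 (adjusted p = 0.154), while haptoglobin (*Hp*) was nearly level at 0.11 and *Fgb*, a fibrinogen chain, had 0.63. The summed level of the list was 34509, 19203 and 22905 CPM in the WT mice against 40945, 34041 and 34596 CPM in the *Sirt7* KO mice. WT mouse 1, the highest WT mouse for *Serpina3n*, was thus also the highest WT mouse here and lay among the *Sirt7* KO mice, and the part of this in the *Serpina3n* values was not tested. In the IL-6 and STAT3 list, the signal that drives acute-phase genes, 2 of 10 were higher and 1 lower at that level, with a median of 0.07. *Stat3* had 112 ± 28.4 CPM in WT and 186 ± 12.4 CPM in *Sirt7* KO mice (0.73, adjusted p = 0.203), *Jak1* a log2 fold change of 0.25, and *Cebpb* one of −1.602 with overlap.

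Lists of factors and hormones known to act on these genes were described in the same way. Of 10 hepatocyte transcription factors 1 had a log2 fold change above 0, 1 was higher and 2 lower at an unadjusted p under 0.05, with a median of −0.07. Their summed level was 485 to 613 CPM in WT mice against 397 to 480 CPM in *Sirt7* KO mice, so the genotypes were barely apart. The most abundant of them, *Hnf4a*, overlapped, with 232 to 360 CPM in WT mice against 172 to 235 CPM in *Sirt7* KO mice. *Nr5a2* (log2 fold change −0.78, adjusted p = 0.258) and *Onecut1* (−0.81, adjusted p = 0.346) were lower without overlap, *Hnf4a* had −0.44 and *Cebpa* −0.12. For the glucocorticoid receptor and its responsive genes, the hormone that the *Serpina6* product carries, 0 of 12 were higher and 2 lower at that level, 2 of 12 had a log2 fold change above 0, and the median was −0.28. These were *Fkbp5*, a co-chaperone of the receptor (42.6, 42.9 and 74.4 CPM in WT mice against 20.2, 27.9 and 30.6 CPM in *Sirt7* KO mice, log2 fold change −1.02, adjusted p = 0.189), and the clock gene *Per1* (−0.90, adjusted p = 0.369). The gluconeogenic *Pck1* had −0.41 and *Tdo2* −0.26. In the growth hormone axis 2 of 8 genes were higher and 2 lower, with a median of 0.18. *Socs2*, a feedback inhibitor of the receptor, was lower (44.5, 20.1 and 35.1 CPM in WT mice against 10.1, 12.1 and 14.3 CPM in *Sirt7* KO mice, −1.45, adjusted p = 0.140), and the repressor *Bcl6* was higher (1.88, adjusted p = 0.166). The receptor gene *Ghr* had 0.37 and *Igf1* −0.02.

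Marker lists of other cell types gave no gene at an unadjusted p under 0.05 among the markers tested. Only 3 of 10 neutrophil, 2 of 10 lymphocyte and 4 of 6 cholangiocyte markers had enough reads to be tested. All markers of the other lists were tested. The 10 neutrophil markers summed to 2.54 to 4.996 CPM in WT mice against 3.95 to 8.61 CPM in *Sirt7* KO mice, and *Camp* and *Ly6g* had no read in any mouse. Kupffer cell and macrophage markers summed to 150 to 401 CPM and 145 to 357 CPM, sinusoidal endothelial markers to 87.6 to 114 CPM and 92.4 to 130 CPM, and stellate cell markers to 274 to 345 CPM and 211 to 333 CPM. Cholangiocyte markers summed to 47.3 to 72.7 CPM and 53.4 to 71.0 CPM, and lymphocyte markers to 7.80 to 12.8 CPM and 4.34 to 8.70 CPM. All of these sums overlapped between genotypes.

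Genes with the most similar pattern were found by the root mean square difference of mean-centred log2(CPM + 0.5) over the 6 mice. The nearest to the *Serpina1* sum were *Ddx20* (0.05), *Dhrs3* (0.05) and *Cndp2* (0.06), where the median over all genes was 0.39. For *Serpina3n*, whose pattern is set by a high WT mouse 1, they were *Bahcc1* (0.06), *Nim1k* (0.12) and *Sestd1* (0.13), with a median of 0.49 over all genes. For *Serpina6* they were *Zfp689* (0.14), *Cnnm3* (0.15) and *Lamb2* (0.15), with a median of 0.56. The genes nearest to *Serpina3n* and *Serpina6* had means under 5 CPM.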

How the data were processed

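RNA-seq libraries of whole liver were prepared from total RNA with SMART-seq HT and Nextera XT. Per the submitters' processing notes, reads were handled with Trim Galore 0.6.5 and Salmon 1.2.1 on GRCm38. The authors deposited, for each mouse, estimated counts per transcript (not normalized) and TPM (scaled by Salmon to effective length and to a total per mouse). The authors' files also give transcript lengths. Replicates were not pooled. Estimated counts were summed over the transcripts of each GENCODE M21 gene and rounded; 1201 of 140992 transcripts without a gene (0.303% to 0.492% of reads) were left out. Depth was 9994860 to 13424776 reads per mouse. Each SE and interval of a log2 fold change comes from the edgeR fit, whose dispersion includes the spread between mice.

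Genes were tested with edgeR 4.0.16 (R 4.3.3), by the quasi-likelihood test with TMM normalization and filterByExpr (minimum count 10), and Benjamini-Hochberg adjustment over 12524 genes. A call needed an adjusted p under 0.05 and a fold change over 1.5. DESeq2 1.42.0, with and without transcript length offsets, was an alternative. Each sum replaced its genes in a separate fit. Shares were compared by exact permutation, two-sided. Scripts were tested on simulated data. The mice are labelled as biological replicates, and their counts differed beyond counting noise (chi-square of at least 16.9 per gene within a genotype), so each was 1 sample.

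The text names the 9 members, both sums, *Sirt7*, every other *Serpina* gene tested, for each gene list the 2 most abundant genes and the 2 with the smallest p (for marker lists only where a value bears on a member), and the 3 genes nearest in pattern to the *Serpina1* sum, *Serpina3n* and *Serpina6*. Genes outside this rule (albumin per length, genes without reads) were named after their values were seen. Members and lists were chosen with earlier results of these data known. Alternatives were other normalizations, filters and tools, equal depth, TPM, the replicate number as a block, and leaving out each mouse.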

Additional observations from a re-analysis of the deposited data

How the results depend on the processing

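With 3 mice per genotype, the spread between mice limits these comparisons more than depth does, and exact tests cannot go below p = 0.1. Most calls depended on the tool. The number of genes called over all genes was 1 with the settings of the report, 2 with total counts, with length offsets in edgeR or at equal depth, 633 without a filter on low counts, 258 and 242 by DESeq2 without and with length offsets, and 0 to 252 when a mouse was left out (252 without *Sirt7* KO mouse 1, 2 without WT mouse 1, and 0 without any other mouse). The *Serpina3* sum, with a log2 fold change of 0.72 to 0.94 over the mice left out, passed the test without a filter (0.85, adjusted p = 0.0109), by DESeq2 (0.84 with either length setting) and without *Sirt7* KO mouse 1 (0.94). *Serpina3k* passed under the same settings, with values of 0.91 without a filter, 0.91 by both DESeq2 fits and 1.02 without *Sirt7* KO mouse 1. *Serpina1e* (1.47 to 2.53 over 16 alternatives) passed without a filter only, at 1.996. In that fit the SEs of the members were nearly alike (0.19 to 0.23), with 0.22 for *Serpina1e* against 0.68 with the filter. The 12.1-fold spread of *Serpina1e* among WT mice thus hardly entered it, and calls without a filter are not comparable with the others. The *Serpina1* sum stayed between 0.32 and 0.53 and did not pass the test under 16 alternatives. The share of gene reads held by the members stayed 0.960 to 1.44 percentage points higher over the mice left out. Their share of TPM was 0.829 percentage points higher. *Serpina6* stayed negative, from −0.82 (without *Sirt7* KO mouse 3) to −0.23 (without *Sirt7* KO mouse 1).

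Some directions turned. *Sirt7* gave 0.80 by edgeR and 0.81 by DESeq2 with length offsets, against −0.51 to −0.26 over the mice left out. *Serpina3m* gave −0.042 with total counts and −0.082 without WT mouse 2, within −0.082 to 0.30 over the mice left out. *Serpina3n* gave −0.086 with total counts, −0.19 without WT mouse 2, −0.07 without WT mouse 3 and −0.01 without *Sirt7* KO mouse 1, and 0.52 without WT mouse 1. The difference in the *Serpina1c* share turned to 0.427 points without WT mouse 3, within −1.87 to 0.427 over the mice left out. Apart from mice left out and offsets, the cause of these changes was not tested.

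The replicate number as a block gave 41 called genes and called no member. Over all genes tested, the deviations of same-numbered mice correlated weakly (0.07, 0.08 and −0.04 for numbers 1 to 3). Among the members, mouse 1 was the lowest of both genotypes for *Serpina1a*, *Serpina1b*, *Serpina1c*, *Serpina1e*, *Serpina3k* and *Serpina6*. This did not hold for *Serpina1d*, *Serpina3m* and *Serpina3n*. With the block the SE of *Serpina3k* was 0.16, against 0.22 without it. The labels state no pairing, and the numbers were not taken as pairs.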
